A study of Homo sapiens with 12 samples.

Results

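The 8 genes PDX1, HNF4A, FOXA1, FOXA2, SOX9, GATA6, KLF5 and ELF3 encode transcription factors of the pancreatic epithelial lineage. They were taken as every probe on the array that carries one of these symbols, which gave 12 probes of 47228, and 8 gene names of 34599, after the spike-in controls were left out. Of these, 7 probes, 1 for each gene except HNF4A, passed the detection filter described below. In Capan-1 cells ELF3, FOXA1, FOXA2, KLF5 and PDX1 were higher than in MIA PaCa-2 cells, while SOX9 was detected in both lines. With knockdown of focal adhesion kinase (FAK), FOXA2 fell in Capan-1, but the call with 1 of the 2 hairpins was lost under another normalization. SOX9 fell in MIA PaCa-2 with 1 of the 2 hairpins. By the t-test of the study's methods neither fall was called after adjustment, and that of SOX9 was not called unadjusted either.

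During development PDX1 marks the cells from which the whole pancreas forms, and later it is restricted mainly to beta cells. FOXA1 and FOXA2 are forkhead pioneer factors that open chromatin in gut endoderm, and GATA6 and HNF4A act with them to keep endodermal identity. SOX9 maintains pancreatic progenitors and stays on in ducts, while KLF5, a Krüppel-like factor, and ELF3, an ETS factor, act in epithelial cells. In pancreatic ductal adenocarcinoma (PDAC), GATA6 and HNF4A are known for the classical expression subtype, and their loss for the basal-like subtype.

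The study asked how the loss of FAK, a tyrosine kinase at integrin adhesions encoded by PTK2, changes gene expression in PDAC cells. MIA PaCa-2 and Capan-1 are established human PDAC cell lines. Each carried a puromycin-selected, tetracycline-inducible pLKO.1 vector with a scrambled hairpin (shCtrl) or with a hairpin against FAK, sh1209 or sh1319. All groups, the controls included, were kept for 96 hours in doxycycline at 50 ng/ml, and puromycin was kept at 3.5 ug/ml in MIA PaCa-2 cultures but at 1.5 ug/ml in those of Capan-1. The 6 groups had 2 arrays each, 12 Illumina HumanHT-12 v4 arrays on 1 chip, and nothing read here says whether the 2 arrays came from separate cultures. The p-values therefore measure only the spread between these arrays, which may be technical.

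Each array had a median intensity of 87.7 to 97.0, and 16259 to 19814 probes were detected (detection p under 0.05 against the negative control beads). Values below are normalized log2 intensities, after background correction with an offset of 16 and quantile normalization. The offset understates the change of dim probes. A probe was tested where it was detected on at least 2 of the 12 arrays, which kept 24207 probes, and was called at an adjusted p under 0.05 (limma with Benjamini-Hochberg adjustment over all 24207). PTK2 probe 450253 fell in each knockdown, with a log2 change of -2.24 ± 0.11 (SE) for sh1209 and -2.48 ± 0.11 (SE) for sh1319 in MIA PaCa-2. The changes in Capan-1 were -0.61 ± 0.11 (SE) and -1.78 ± 0.11 (SE). The second PTK2 probe, 2680750, was dim and was called in none of these. Ductal markers were detected on 2 or more arrays for 8 of 10 genes in MIA PaCa-2 and 10 of 10 in Capan-1, with a mean log2 level of 5.47 to 5.95 and 8.66 to 8.87. CFTR was detected on 3 arrays of each line. Of 9 acinar genes, PRSS1 and AMY2A reached this in Capan-1 and none did in MIA PaCa-2, and of 8 endocrine genes none did in either line. Fibroblast genes reached it for 3 of 8 in MIA PaCa-2 and 2 of 8 in Capan-1, with a mean log2 level of 4.58 to 5.85 and 4.57 to 4.71. These were COL1A2, COL3A1 and ACTA2 in MIA PaCa-2 and LUM and ACTA2 in Capan-1, whereas PDGFRB was detected on no array. Leukocyte genes reached it for 2 of 6 in each line, AIF1 in both, CD14 in MIA PaCa-2 and LYZ in Capan-1. PTPRC was detected on 1 array. Endothelial genes reached it for 1 of 4 and 2 of 4, PECAM1 in both lines and VWF in Capan-1, and CDH5 was detected on no array. Their part in the results below was not tested. In bulk RNA, fewer cells that express a gene and less RNA in each cell cannot be told apart.

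RefSeq promoter windows (GRCh38.p14) of 250 bases before to 50 after a transcription start were at hand for 5 of the 8 genes, 7 windows in all, with 2 starts each for HNF4A and KLF5. The 120 bases just before the start are shown for ELF3, FOXA1 and KLF5, whose expression differed between the lines, with motif matches in capitals. Of 8 motifs searched on both strands of each whole window, the TATA box motif TATAAA matched in ELF3, 34 bases before the start, and the SOX motif ACAATG matched in reverse in KLF5, 58 bases before its first start.
ELF3, chr1:202010467-202010586, plus strand: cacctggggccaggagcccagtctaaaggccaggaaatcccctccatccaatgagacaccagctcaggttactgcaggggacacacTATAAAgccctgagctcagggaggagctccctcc
FOXA1, chr14:37595250-37595369, minus strand: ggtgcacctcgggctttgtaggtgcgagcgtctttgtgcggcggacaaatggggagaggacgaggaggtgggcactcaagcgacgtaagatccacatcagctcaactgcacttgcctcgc
KLF5 first start, chr13:73054856-73054975, plus strand: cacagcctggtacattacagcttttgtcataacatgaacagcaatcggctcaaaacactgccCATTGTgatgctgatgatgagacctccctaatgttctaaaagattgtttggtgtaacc
KLF5 second start, chr13:73058885-73059004, plus strand: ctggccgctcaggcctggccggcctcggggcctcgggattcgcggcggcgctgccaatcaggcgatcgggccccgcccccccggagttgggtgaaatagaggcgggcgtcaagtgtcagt

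TATAAA was in 11.5% and ACAATG in 10.8% of the 35116 windows in the table. Outside the stretches shown, KLF5 had TATAAA 194 bases before its first start and FOXA1 had the ETS motif GGAAGT, found in 22.8% of windows, in reverse 15 bases after its start. In HNF4A the GATA factor motif AGATAA, found in 10.3%, lay 26 bases before the first start, and the PDX1 motif TAATTA, found in 4.84%, lay 159 bases before the second. The 7 windows held no match of the forkhead motif TGTTTAC, found in 3.42% of all windows, of the Krüppel-like motif GGGTGTG, found in 7.56%, or of the HNF4 motif CAAAGTCCA, found in 0.384%. The KLF5 windows differed in base composition, with 40.7% G and C at the first start and 71.3% at the second, against a median of 58.7% over all windows. These matches are a description of the letters only.

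The lines were first compared without knockdown, MIA PaCa-2 against Capan-1 with shCtrl. Puromycin dose differed with the line, so line and dose cannot be told apart here or in any comparison between the lines below. Of the 7 tested probes, 5 were lower in MIA PaCa-2 and none was higher. FOXA1, FOXA2, KLF5, PDX1 and GATA6 passed the detection filter only through arrays of Capan-1. For these a call in the other direction was hardly possible, so the split of the count is no result in itself. Over the array 42.1% of probes were called, 22.5% higher and 19.6% lower in MIA PaCa-2. ELF3 had log2 levels of 4.62 and 4.92 on the shCtrl arrays of MIA PaCa-2 and 9.62 and 9.42 on those of Capan-1. The groups lay far apart, with a difference of -4.75 ± 0.18 (SE, adjusted p = 9.5e-10). ELF3 was detected on 4 of the 6 arrays of MIA PaCa-2, and was the only one of the 5 called factors detected there on more than 1 array.

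The pioneer factor FOXA1 had log2 levels of 4.45 and 4.22 in MIA PaCa-2, against 8.81 and 8.81 for Capan-1, a difference of -4.47 ± 0.13 (SE, adjusted p = 1.4e-10). FOXA2 probe 4610592 had 4.23 and 4.28 in MIA PaCa-2, against 7.42 and 7.55 for Capan-1, a difference of -3.23 ± 0.13 (SE, adjusted p = 1.6e-09). KLF5 had 4.40 and 4.67 against 7.32 and 7.65, a difference of -2.95 ± 0.16 (SE, adjusted p = 3e-08). None of these 3 was detected with shCtrl in MIA PaCa-2, so the size of these fitted differences depends on the background, and only a bound was measured. Against the lowest signal of a detected probe, Capan-1 was at least 17.2-fold higher for FOXA1, 6.86-fold for FOXA2 and 6.85-fold for KLF5. PDX1 was dim in both lines, with 4.34 and 4.20 in MIA PaCa-2, against 5.02 and 5.25 for Capan-1. It was detected on all 6 arrays of Capan-1 and on none of MIA PaCa-2, and was at least 1.34-fold higher in Capan-1 (difference -0.86 ± 0.13 SE, adjusted p = 1.7e-04). These 5 calls held without any 1 array, whereas that of PDX1 was lost by the methods' t-test after adjustment (adjusted p = 0.088).

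SOX9 was the one factor detected on all 12 arrays. Its log2 levels with shCtrl were 7.73 and 7.42 in MIA PaCa-2, against 7.18 and 7.16 for Capan-1, a difference of 0.40 ± 0.18 (SE) that was not called (adjusted p = 0.097). GATA6 lay between 4.20 and 4.75 on all arrays. It was detected on 2 of them, Capan-1 sh1209 replicate 2 and Capan-1 sh1319 replicate 1, and was called in no comparison. HNF4A was not tested, since its 3 probes had intensities of 78.6 to 102.0, near the median of each array. The single detection, by probe 4780025 in MIA PaCa-2 shCtrl replicate 1, was not repeated on the other array of that group. Of the 3 FOXA2 probes, 2 were detected on no array, with intensities of 75.5 to 93.4, so all values for FOXA2 rest on probe 4610592. At this signal over background a low level of HNF4A or GATA6 was not detectable.

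**Figure D1:**
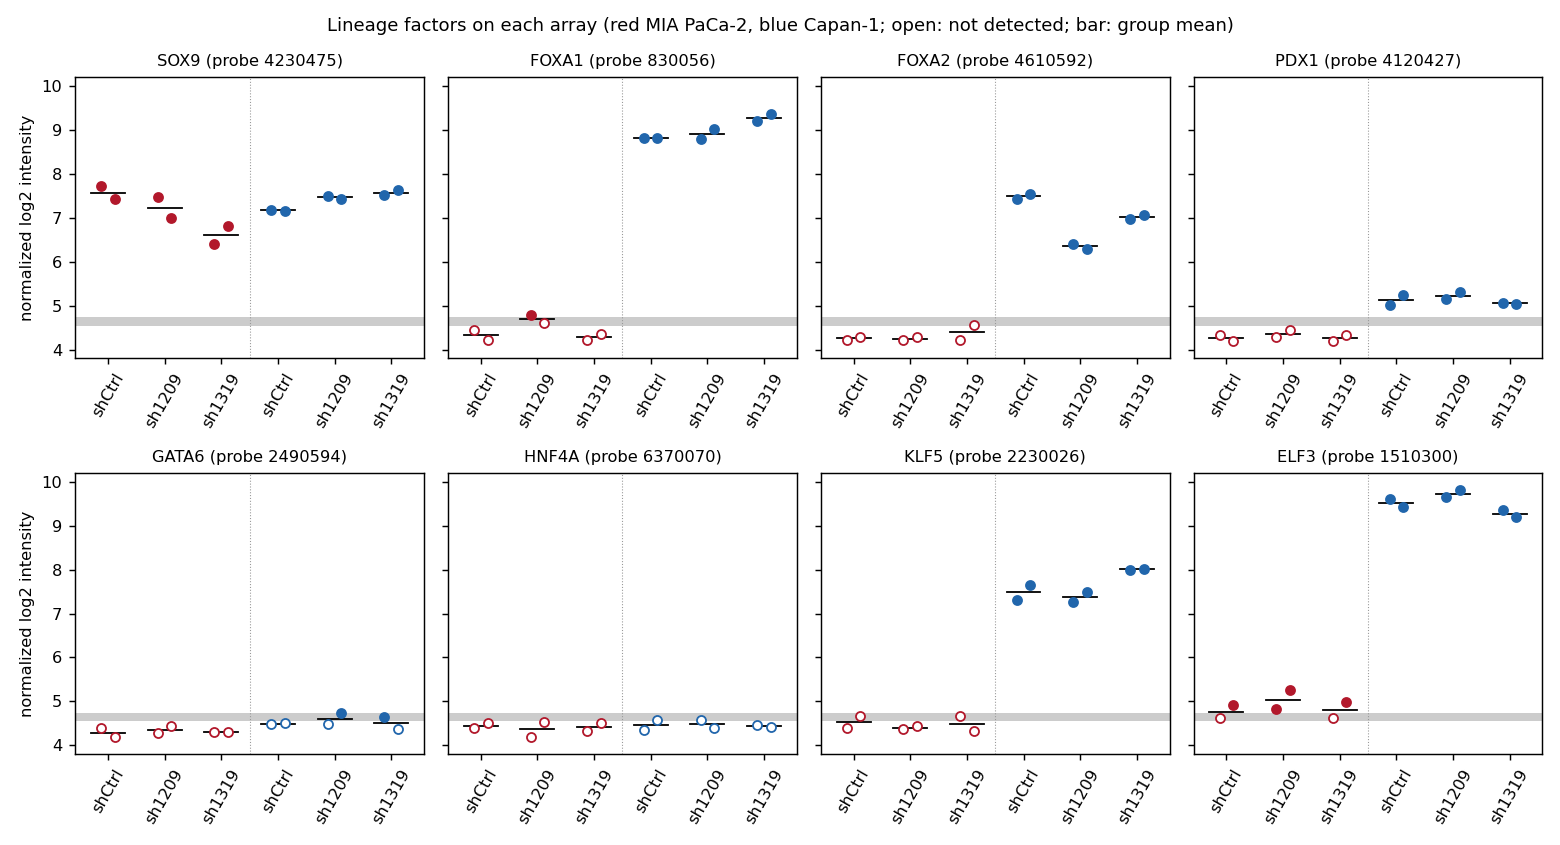
Normalized log2 intensity (vertical axis) of the brightest probe of each of the 8 factors on all 12 arrays, by hairpin, in MIA PaCa-2 (red) and Capan-1 (blue). Filled points were detected, open points were not, bars are group means and the grey band spans the lowest detected signal of each array. FOXA1, FOXA2, KLF5 and ELF3 stand well above the band in Capan-1 and near it in MIA PaCa-2, SOX9 is above it in both, and HNF4A and GATA6 stay near it.

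Knockdown of FAK in MIA PaCa-2 was compared with shCtrl for each hairpin. With sh1209 none of the 7 probes was called, with 1 of the 7, FOXA1 near background, at an unadjusted p under 0.05 in limma and 0 by the methods' t-test, while 18.0% of all probes were called, 9.05% higher and 8.99% lower. With sh1319 only SOX9 was called, and it fell. Over the array 24.3% were called, 12.2% higher and 12.1% lower. The share of rises among the called probes was 50.3% after quantile normalization and 66.6% after median scaling. SOX9 had log2 levels of 7.73 and 7.42 with shCtrl, 7.46 and 6.98 with sh1209 and 6.41 and 6.80 with sh1319. The sh1319 arrays lay below all 4 others, while those of sh1209 and shCtrl overlapped.

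SOX9 fell by 0.97 ± 0.18 (SE, adjusted p = 0.0019) with sh1319 in MIA PaCa-2, to 51.1% of the control. With sh1209 the change was -0.35 ± 0.18 (SE, adjusted p = 0.22). The fall with sh1319 was -1.17 to -0.77 without any 1 of the 4 arrays, with an adjusted p of 0.0025 to 0.024. It was lost by the methods' t-test (adjusted p = 0.24), and the adjusted p over all alternatives ranged from 4.5e-05 to 0.24. The other 6 tested factors had changes of -0.13 to 0.36 in MIA PaCa-2. Of these FOXA1, FOXA2, KLF5, PDX1 and GATA6 were at or below the detection limit there, so a fall could not have been measured. ELF3 was detected on 1 of the 2 shCtrl arrays of this line, so a fall of it could hardly have been measured.

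In Capan-1 FOXA2 fell with both hairpins. It had log2 levels of 7.42 and 7.55 with shCtrl, 6.40 and 6.30 with sh1209 and 6.97 and 7.05 with sh1319. The 3 groups did not overlap, with shCtrl highest and sh1209 lowest. FOXA2 fell by 1.14 ± 0.13 (SE, adjusted p = 1.3e-04) with sh1209, to 45.4% of the control. This was the only call among the 7 probes, against 16.8% of all probes, 8.14% higher and 8.69% lower. The fall was -1.20 to -1.08 without any 1 of the 4 arrays and stayed called under every alternative except the methods' t-test after adjustment (adjusted p = 0.13, range over alternatives 4.2e-07 to 0.13).

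With sh1319 in Capan-1, 2 of the 7 probes were called, FOXA2 lower and FOXA1 higher, against 13.7% of all probes, 6.95% higher and 6.77% lower. FOXA2 fell by 0.47 ± 0.13 (SE, adjusted p = 0.032), to 72.1% of the control. FOXA1 had log2 levels of 8.81 and 8.81 with shCtrl, 8.80 and 9.02 with sh1209 and 9.20 and 9.35 with sh1319. The sh1319 arrays were above the others, and FOXA1 rose by 0.47 ± 0.13 (SE, adjusted p = 0.040), or 1.38-fold. Both calls were lost without any 1 of the 4 arrays, Capan-1 shCtrl replicate 1 or 2 or sh1319 replicate 1 or 2, with changes of -0.54 to -0.41 and an adjusted p of 0.078 to 0.17 for FOXA2, and 0.39 to 0.55 and 0.078 to 0.21 for FOXA1. Both were also lost with median scaling, where FOXA2 changed by -0.20 (adjusted p = 0.66) and FOXA1 by 0.64 (adjusted p = 0.051).

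The epithelial factors KLF5 and ELF3 and the ductal factor SOX9 were not called against shCtrl in Capan-1. KLF5 had log2 levels of 7.32 and 7.65 with shCtrl, 7.27 and 7.49 with sh1209 and 8.0 and 8.02 with sh1319. Its arrays with sh1319 lay above the others, but the change of 0.53 ± 0.16 (SE) missed the threshold (adjusted p = 0.053). It passed without background correction (0.39, adjusted p = 0.0019), with median scaling (0.72, adjusted p = 0.030) and with the stricter filter (adjusted p = 0.040). SOX9 had 7.18 and 7.16 with shCtrl, 7.49 and 7.43 with sh1209 and 7.51 and 7.62 with sh1319. Both arrays of each FAK hairpin lay above the controls, with changes of 0.29 ± 0.18 (SE, adjusted p = 0.35) and 0.40 ± 0.18 (SE, adjusted p = 0.19). ELF3 changed by 0.21 ± 0.18 (SE, adjusted p = 0.53) and -0.25 ± 0.18 (SE, adjusted p = 0.45), and PDX1 by 0.09 ± 0.13 (SE, adjusted p = 0.75) and -0.08 ± 0.13 (SE, adjusted p = 0.79).

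**Figure D2:**
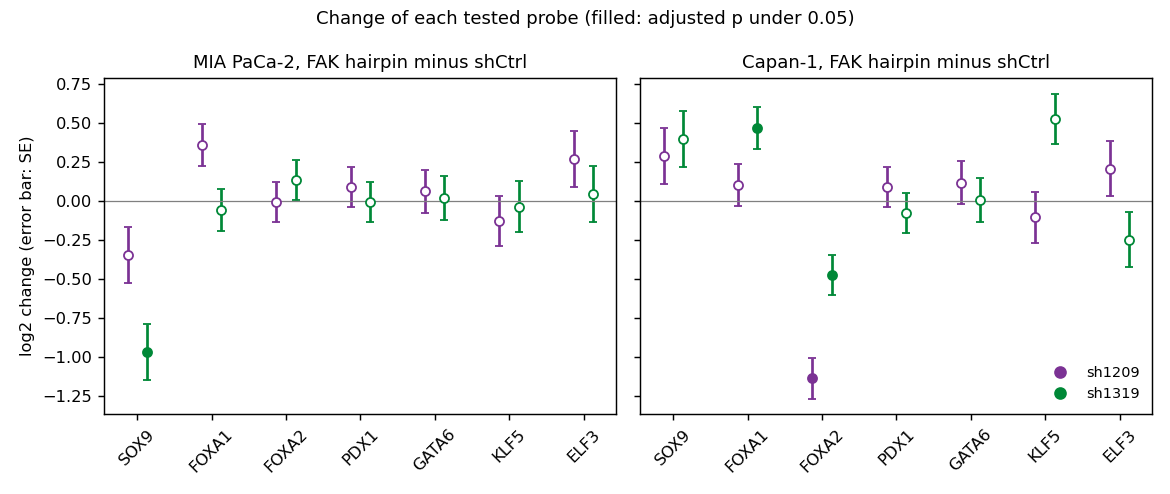
Log2 change against shCtrl (vertical axis, error bars are SE) of the 7 tested probes with sh1209 and sh1319, in MIA PaCa-2 (left) and Capan-1 (right), with 2 arrays in each group. Filled points had an adjusted p under 0.05: SOX9 at -0.97 in MIA PaCa-2 and FOXA2 at -1.14 and -0.47 and FOXA1 at 0.47 in Capan-1.

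Median scaling in place of quantile normalization moved the changes of all probes in Capan-1 upward, by a median of 0.14 with sh1209 and 0.15 with sh1319. The share of rises among the called probes went from 48.4% to 81.7% and from 50.6% to 85.3%, so changes in Capan-1 are relative to the normalization. FOXA2 with sh1209 kept its direction and its call under both.

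The hairpins differed from each other for SOX9 and FOXA1 in MIA PaCa-2 (2 of 7 called, against 22.6% of all probes) and for FOXA2 and KLF5 in Capan-1 (2 of 7, against 11.3%). SOX9 was lower with sh1319 than with sh1209 by -0.62 ± 0.18 (SE, adjusted p = 0.027) in MIA PaCa-2. This was lost without sh1209 replicate 1 or sh1319 replicate 1, and the adjusted p without 1 array ranged from 0.010 to 0.22. FOXA1 differed there by -0.42 ± 0.13 (SE, adjusted p = 0.045), but it was detected on 1 array of these groups, sh1209 replicate 1, and the call was lost without any 1 of the 4 arrays compared. In Capan-1 FOXA2 was higher with sh1319 than with sh1209 by 0.67 ± 0.13 (SE, adjusted p = 0.0064), and this was lost without sh1209 replicate 2 or sh1319 replicate 2, with an adjusted p up to 0.055. KLF5 was higher by 0.63 ± 0.16 (SE, adjusted p = 0.028), a call that was lost without any 1 of the 4 arrays (adjusted p 0.061 to 0.20). PTK2 probe 450253 was lower with sh1319 than with sh1209 in Capan-1, by -1.16 ± 0.11 (SE, adjusted p = 6.2e-05). The dim second probe, 2680750, differed by 5.4e-04 ± 0.16 (SE) and was not called. By probe 450253 the fall of PTK2 in Capan-1 was smaller with sh1209, while the fall of FOXA2 was larger. A link between these falls was not tested.

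The difference between the lines in the mean change of both hairpins was tested as an interaction, in which 14.4% of all probes and 2 of the 7 were called. For SOX9 the change in MIA PaCa-2 was lower than that of Capan-1 by -1.0 ± 0.22 (SE, adjusted p = 0.010). The adjusted p was 0.0042 to 0.049 without any 1 of the 12 arrays. For FOXA2 the change was higher in MIA PaCa-2 by 0.87 ± 0.16 (SE, adjusted p = 0.0036). FOXA2 was detected on no array of MIA PaCa-2, so no fall could have been seen there, and with median scaling the difference was 0.60 (adjusted p = 0.17). The interaction was not called for the other 5 factors.

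Other transcription factors of the pancreas and foregut were lower in MIA PaCa-2 more often than higher. Of 30 genes 29 were on the array and 16 were tested, of which 1 was higher and 9 were lower, with a median difference of -0.64 against 0.04 over 19089 genes. Of those 19089, 22.2% were called higher and 20.3% lower. ISL1, an islet and neuronal LIM homeobox factor, was at least 8.55-fold higher in Capan-1. FOXA3, the third forkhead paralog of FOXA1 and FOXA2, was at least 5.37-fold higher, and NR5A2, a nuclear receptor of acinar and foregut cells, at least 4.45-fold. CEBPA, a leucine zipper factor of liver and fat, was higher in MIA PaCa-2 by 0.77 (adjusted p = 8.2e-04). Without any 1 of the arrays compared, 8 to 11 genes were called. With median scaling 12 were lower and CEBPA was no longer called higher. ISL1 and FOXA3 were detected on no array of MIA PaCa-2. For such genes a call in the other direction was hardly possible, so the split of the count is no result in itself.

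In the hairpin comparisons the same 16 genes split in both directions, with 4 higher and 2 lower for sh1209 and 3 and 3 for sh1319 in MIA PaCa-2. Over all genes 9.37% were higher and 8.92% lower for sh1209 in this line, and 12.5% and 12.2% for sh1319. In Capan-1 there was 1 higher and 5 lower for sh1209 and 1 and 4 for sh1319, against 8.54% and 8.74% and 7.41% and 6.86% over all genes. These counts fell to 2 to 3, 2 to 5, 2 to 4 and 2 to 3 genes without any 1 of the arrays compared. With median scaling 2, 2, 3 and 3 were called in these comparisons, and in Capan-1 the split was 2 higher and 1 lower for sh1209 and 3 higher and none lower for sh1319. HHEX, a homeobox factor of the foregut and ventral pancreas, fell by 0.90 with each hairpin in Capan-1 (adjusted p = 5.5e-04 and 7.8e-04). In MIA PaCa-2 it rose by 0.42 with sh1209 (adjusted p = 0.040), a call lost without any 1 of the 4 arrays, and fell by 0.70 with sh1319 (adjusted p = 0.0016). With median scaling HHEX was called in none of the 4, with changes of the same sign. CDX2, a factor of intestinal identity, rose by 1.29 with sh1209 in Capan-1 (adjusted p = 0.0059), but without Capan-1 shCtrl replicate 1 by 0.96 (adjusted p = 0.063). ONECUT2, a foregut factor, fell by 0.80 with sh1209 in Capan-1 and rose by 0.58 with sh1319 in MIA PaCa-2 (adjusted p = 0.0035 and 0.013), the latter lost without MIA PaCa-2 shCtrl replicate 1 or sh1319 replicate 1 (adjusted p = 0.090 and 0.11).

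Of the other ETS, Krüppel-like and Grainyhead factors of epithelia, 16 were on the array and 15 were tested. In MIA PaCa-2 0 were higher and 9 lower than in Capan-1, with a median difference of -0.73 against 0.04 over all genes, and 8 to 9 were called without any 1 of the arrays compared. Over all genes 22.2% were higher and 20.3% lower in MIA PaCa-2. OVOL2, a zinc finger repressor of mesenchymal genes, was lower by -2.55 (adjusted p = 1.7e-08) and was detected on 1 shCtrl array of MIA PaCa-2. The ETS factor ELF1 was lower by -2.24 (adjusted p = 1.1e-08), and SPDEF, an ETS factor of secretory cells, was at least 3.45-fold higher in Capan-1. SPDEF passed the filter only through Capan-1. For such genes a call in the other direction was hardly possible, so the split of the count is no result in itself.

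In Capan-1 SPDEF rose with both FAK hairpins, by 1.23 with sh1209 and 1.24 with sh1319 (adjusted p = 2.4e-05 and 5.1e-05). GRHL3, a Grainyhead factor of surface epithelia, rose by 0.64 and 2.08 (adjusted p = 0.0041 and 2.9e-06). In all 3 of 15 were higher and 1 lower with sh1209, against 8.54% and 8.74% over all genes. With sh1319 2 were higher and 1 lower, against 7.41% and 6.86%, so the lower count was near that share. The third rise with sh1209 was EHF, an ETS factor like ELF3, by 1.09 (adjusted p = 0.0024). With sh1319 in Capan-1 the change of EHF was 0.63 ± 0.19 (SE) and missed the threshold (adjusted p = 0.050). In MIA PaCa-2 EHF fell with sh1209 by 1.53 (adjusted p = 2e-04), while with sh1319 its change was 0.32 (adjusted p = 0.28). There the list had 3 higher and 1 lower with sh1209 and 0 and 1 with sh1319, which was 1 to 2 genes without any 1 of the arrays compared. Over all genes 9.37% were higher and 8.92% lower with sh1209 in MIA PaCa-2, and 12.5% and 12.2% with sh1319. SPDEF and GRHL3 were detected on no array of MIA PaCa-2.

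Genes of the classical and basal-like PDAC subtypes were then counted. In the classical list 23 of 25 genes were on the array and 18 were tested, of which 17 were lower in MIA PaCa-2 and 0 higher, with a median of -4.73 against 0.04 over all genes. Over all genes 20.3% were called lower. AGR2, a disulfide isomerase of mucous cells, was at least 260.5-fold higher in Capan-1, and the trefoil peptide TFF2 at least 234.8-fold. TSPAN8, a tetraspanin of gut epithelium, differed by -8.19 (adjusted p = 1.8e-11) and was detected on 1 of the 2 shCtrl arrays of MIA PaCa-2. AGR2 and TFF2 were detected on no array of MIA PaCa-2, so they passed the filter only through Capan-1. For such genes a call in the other direction was hardly possible, so the split of the count is no result in itself. Without any 1 of the arrays compared 17 were called.

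FOXA2 fell beside several of these genes in Capan-1, where the list had 0 higher and 6 lower with sh1209 and 4 and 4 with sh1319, against 8.54% higher and 8.74% lower and 7.41% and 6.86% over all genes. LYZ, which encodes lysozyme, fell by 1.29 with sh1209 (adjusted p = 3.5e-05) and by 0.56 with sh1319 (adjusted p = 0.012), the latter lost without Capan-1 shCtrl replicate 1 or sh1319 replicate 1 (adjusted p = 0.096 and 0.097). ANXA10, an annexin of gastric mucosa, fell by 1.85 and 1.37 (adjusted p = 3.9e-06 and 9.4e-05). CEACAM6, a cell surface adhesion glycoprotein, rose by 1.35 with sh1319 (adjusted p = 2.4e-05). In MIA PaCa-2 the one call with either hairpin was ANXA10, which rose to at least 3.22-fold with sh1209 and at least 35.6-fold with sh1319. Over all genes 9.37% were higher there with sh1209 and 12.5% with sh1319. CEACAM6, LYZ, AGR2 and TFF2 were detected on no array of MIA PaCa-2, so a fall of them could not have been measured there. Without any 1 of the arrays compared 5 to 6 were called with sh1209 and 4 to 6 with sh1319 in Capan-1, with median scaling 0 higher and 4 lower and 3 and 1.

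**Figure D3:**
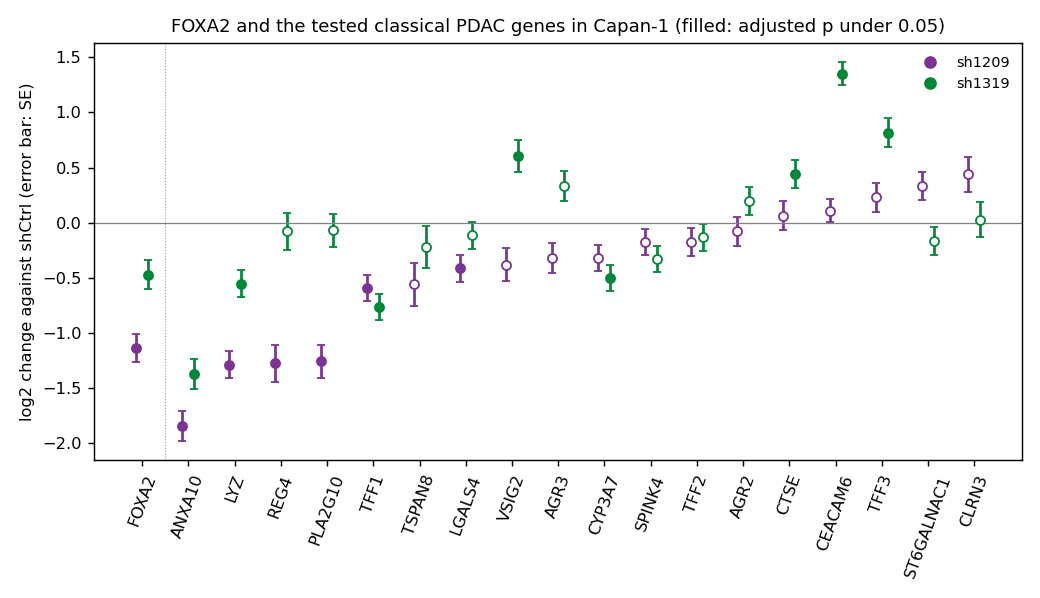
Log2 change against shCtrl in Capan-1 (vertical axis, error bars are SE, 2 arrays a group) of FOXA2, left of the dotted line, and of the 18 tested classical PDAC genes, with sh1209 and sh1319. Filled points had an adjusted p under 0.05, which was so for ANXA10, LYZ and TFF1 below 0 with both hairpins. With sh1209 it was so too for REG4, PLA2G10 and LGALS4 below 0, and with sh1319 for CYP3A7 below 0 and for CEACAM6, TFF3, VSIG2 and CTSE above 0.

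Basal-like genes were on the array for 25 of 25 and tested for 21. Of these 1 was higher in MIA PaCa-2 and 11 were lower, with a median of -0.36, and without any 1 of the arrays compared 9 to 10 were called. Over all genes 22.2% were higher and 20.3% lower in MIA PaCa-2. The keratin KRT7 was at least 32.8-fold higher in Capan-1, FGFBP1, a carrier of fibroblast growth factors, at least 4.37-fold and the keratin KRT17 at least 3.06-fold. CTSL2, a cathepsin, was higher in MIA PaCa-2 by 1.80 (adjusted p = 1.3e-07). FGFBP1 and KRT17 were detected on no array of MIA PaCa-2. For such genes a call in the other direction was hardly possible, so the split of the count is no result in itself.

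In Capan-1 6 basal-like genes were higher and 2 lower with sh1209, against 8.54% and 8.74% over all genes. With sh1319 the counts were 2 and 2 of 21, near the 7.41% and 6.86% over all genes. Without any 1 of the arrays compared, 3 to 5 and 3 to 4 were called, and with median scaling the splits were 5 and 1 and 4 and 1. VGLL1, a cofactor of TEAD proteins, rose by 1.44 and 1.81 (adjusted p = 1.1e-04 and 4.1e-05), and S100A2, a calcium-binding protein, changed by -1.18 and -2.22 (adjusted p = 0.0053 and 1.4e-04). The change of S100A2 with sh1209 was -0.91 (adjusted p = 0.065) without Capan-1 sh1209 replicate 2. In MIA PaCa-2 1 was higher and 0 lower with sh1209, and 3 and 3 with sh1319, which were 1 to 2 and 3 to 5 genes without any 1 of the arrays compared. Over all genes 9.37% were higher and 8.92% lower there with sh1209, and 12.5% and 12.2% with sh1319. The 3 and 3 of 21 with sh1319 were thus near the share over all genes. With median scaling the split for sh1319 was 2 higher and 0 lower. FGFBP1 and KRT17 were detected on no array of this line, so a fall of them could not have been measured. With sh1319 S100A2 rose there by 1.50 (adjusted p = 6.1e-04), and ANXA8L2, an annexin, by 2.59 (adjusted p = 1.1e-05).

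Of the epithelial identity genes 13 of 14 were on the array and 12 were tested. In MIA PaCa-2 10 were lower and 0 higher than in Capan-1, with a median of -5.67, and 9 to 10 were called without any 1 of the arrays compared. Over all genes 20.3% were lower and 22.2% higher in MIA PaCa-2. MAL2, a membrane trafficking protein, was at least 170.0-fold higher in Capan-1, and the adhesion molecule EPCAM at least 99.1-fold. MAL2 was detected on no array of MIA PaCa-2, so a fall of it with knockdown could not have been measured there. For such genes a call of higher in MIA PaCa-2 was hardly possible, so the split between the lines is no result in itself. In MIA PaCa-2 the simple-epithelium keratin KRT19 fell by 1.44 with sh1209 and 1.47 with sh1319 (adjusted p = 2.5e-04 and 1.3e-04). KRT19 was detected on 1 of the 2 arrays with each FAK hairpin, so the size of these falls depends on the background. SOX9 was called in this line only with sh1319. KRT8 fell by 1.09 and KRT18 by 0.80 with sh1319 (adjusted p = 3e-04 and 0.010), and the call of KRT18 was lost without MIA PaCa-2 shCtrl replicate 1 or sh1319 replicate 2 (adjusted p = 0.054 and 0.056). In all 0 were higher and 1 of 12 lower with sh1209, the latter near the share over all genes (9.37% higher and 8.92% lower). With sh1319 0 were higher and 3 lower, against 12.5% and 12.2% over all genes. In Capan-1 the counts were 2 higher and 2 lower with sh1209, against 8.54% and 8.74% over all genes, and 1 and 1 of 12 with sh1319, near the 7.41% and 6.86% over all genes. They were 1 to 3 genes and 1 gene without any 1 of the arrays compared. With median scaling both splits were 2 higher and 0 lower. Of the 6 repressors of the epithelial program (the ZEB, SNAI and TWIST factors) 2 were tested and none was called in any of these comparisons.

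**Figure D4:**
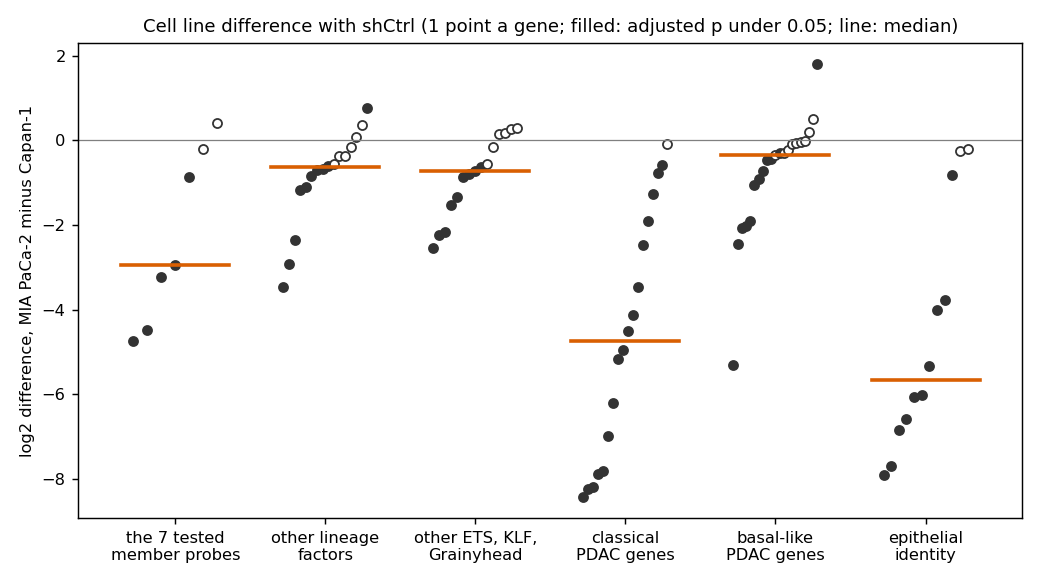
Log2 difference between MIA PaCa-2 and Capan-1 with shCtrl (vertical axis, below 0 is lower in MIA PaCa-2), 1 point a gene, for the 7 tested factors and 5 gene lists, with medians as lines. Filled points had an adjusted p under 0.05: 5 of 7 factors, 17 of 18 classical genes and 10 of 12 epithelial identity genes were lower in MIA PaCa-2. Of the factors, FOXA1, FOXA2, KLF5, PDX1 and GATA6 passed the detection filter only through Capan-1. So did some list genes, AGR2, TFF2 and MAL2 among them, for which a call in the other direction was hardly possible.

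The genes whose probes ran most like each factor over the 12 arrays, after the mean of each line was subtracted, were LYZ (Pearson r = 0.98) and SHISA2 (0.97) for FOXA2 and SON (0.97) and TANC1 (0.96) for SOX9. They were CNBP (0.96) and LOC652537 (0.94) for FOXA1 and ARMCX6 (0.96) and SORBS3 (0.94) for KLF5. They were LOC642866 (0.93) and LOC643045 (0.89) for ELF3. For the dim probes they were LOC100130190 (0.91) and LOC100130663 (0.86) for PDX1, and ADAM2 (0.85) and KLHL12 (0.85) for GATA6. These were picked from 24207 probes, and the arrays share their groups and chip, so they are a description only. FOXA2, KLF5, PDX1 and GATA6 were detected on no array of MIA PaCa-2 and FOXA1 on 1. Their values in that line lie near background.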

How the data were processed

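RNA of 12 samples from 2 PDAC cell lines was hybridised to Illumina HumanHT-12 v4 arrays, 2 for each of 6 groups. Per the labels, samples were grouped by cell line and hairpin, and shFAK1319 in the Capan-1 labels was read as sh1319. The authors deposited, from GenomeStudio 2011.1 per the submitters' processing notes, the intensity of each probe without normalization and its detection p-value.

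Background was corrected with limma 3.58.1 (nec, offset 16) in R 4.3.3. The 92 spike-in probes were then dropped, log2 values were quantile-normalized between arrays, and probes detected on at least 2 arrays were fitted with lmFit on 6 group means and eBayes (6 residual degrees of freedom). The Benjamini-Hochberg adjustment ran within each comparison. The number of arrays limits the precision. The fit was tested on simulated data.

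The members and the 6 gene lists were chosen with earlier results of these data known. Named list genes were the up to 3 largest called changes over the hairpin comparisons, and the up to 3 largest in each direction between the lines. A gene that this rule names is not reported here. The brightest probe stood for a gene. Where a group had no detected array, a fold is a bound against the lowest detected signal of each array. Alternatives were median scaling, intensities without background correction, no filter, detection on at least 6 arrays, a replicate block, each array left out, the methods' t-test and only the groups compared. Running them on the lists was added after seeing the data.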

Additional observations from a re-analysis of the deposited data

Results flagged for a closer look

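The mean change with both FAK hairpins differed between the 2 lines, by the interaction test in limma, for 2 of the 7 tested factors. For SOX9 the difference, MIA PaCa-2 minus Capan-1, was -1.0 (adjusted p = 0.010). For FOXA2 it was 0.87 (adjusted p = 0.0036), but FOXA2 was detected on no array of MIA PaCa-2 and the difference was not called with median scaling. With 2 arrays a group, a sample that stands apart could not be tested for.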

How the results depend on the processing

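Of 56 changes of the 7 probes in 8 comparisons, 15 were called, and no called value changed sign under any alternative. Of the 35 called under no setting, 21 changed sign under at least 1. The number of called probes moved as follows. The methods' t-test after adjustment called 0 for sh1319 in MIA PaCa-2, for each hairpin in Capan-1 and for sh1319 against sh1209 in each line. Unadjusted, it called 0 for sh1319 and 0 for sh1319 against sh1209 in MIA PaCa-2, and 2 for sh1209 in Capan-1. Median scaling called 1 for sh1319 in Capan-1, KLF5, in place of FOXA1 and FOXA2, and called 0 and 1 for sh1319 against sh1209 in MIA PaCa-2 and Capan-1, and 1 for the interaction. Without background correction 1 and 4 were called for sh1319 against sh1209. With only the groups compared in the fit, 0 were called for sh1319 in Capan-1 and 0 for sh1319 against sh1209 in MIA PaCa-2. With each of the 12 arrays left out in turn, 0 to 3 were called for sh1319 against its control in Capan-1, and 0 to 2 for sh1319 against sh1209 in MIA PaCa-2 and 0 to 2 in Capan-1. With no filter or the stricter filter no count moved by over 1.5 times. The replicate block left 1 call for sh1319 in Capan-1 and 1 for sh1319 against sh1209 in MIA PaCa-2, and changed no other count of the members. Deviations of same-numbered arrays correlated at -0.06 to 0.16 over 15 pairs of groups, so the numbers were not taken to pair the samples. Signal over background limits HNF4A, GATA6 and, in MIA PaCa-2, FOXA1, FOXA2, KLF5, PDX1 and ELF3.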
